A study of Mus musculus with 8 samples.

Results

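The 8 genes that encode the constant regions of the mouse immunoglobulin heavy chains were taken by symbol from the deposited tables, in which they were 8 of 52550 genes. The tables hold RNA sequencing values of bone marrow cells of the pre-pro-B and the pro-B stage, which were isolated with a flow sorter. The donors were wild-type (WT) C57BL/6J mice and lactoferrin knockout (Lf-/-) mice of the same strain. There were 7 libraries, of which WT contributed 2 at the pre-pro-B stage and 1 at the pro-B stage, and Lf-/- contributed 2 at each. A further WT pro-B sample in the labels is not analysed here. No mouse received a treatment, and controls were littermates matched for age, with no age stated. In its cell frequency measurements, the study gated pro-B cells as B220+CD43+IgM-. The methods speak of 3 mice per group and the labels list 2 samples per group, and how mice were divided among libraries is not given in the sources used here, so p-values measure only the spread between these libraries, which may be technical. The study asked how loss of lactoferrin alters the transcripts of both stages, and the comparisons below ask that of the heavy chain isotypes.

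A heavy chain gene is assembled by joining V, D and J segments, and the joined exon is first transcribed together with Ighm, which encodes the constant region of IgM. Ighd, which encodes that of IgD, lies just downstream and is reached by alternative processing of the same long transcript, mainly in mature naive B cells. The Ighg genes (IgG subclasses), Ighe (IgE) and Igha (IgA) replace Ighm by class switch recombination in B cells that have met antigen, and plasma cells then transcribe the chosen gene at very high level. Heavy chain segments are joined mainly in pro-B cells, and both stages come before IgD expression and class switching, although unrearranged loci can give rise to transcripts without a V region.

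The 8 genes lie in a row on the minus strand of chromosome 12 (GRCm38, GENCODE M21 annotation), each annotated as a constant region gene with 2 transcripts and without another gene overlapping it. Ighm (ENSMUSG00000076617, 113418558 to 113422730) comes first in the direction of transcription, and Ighd (ENSMUSG00000104213, 113406604 to 113416324) starts 6406 bases downstream of the first base of Ighm. Then follow Ighg3 (ENSMUSG00000076615, 113356224 to 113361232), Ighg1 (ENSMUSG00000076614, 113325240 to 113330523), Ighg2b (ENSMUSG00000076613, 113302965 to 113307933) and Ighg2c (ENSMUSG00000076612, 113285325 to 113288932). Ighe (ENSMUSG00000087642, 113269260 to 113273248) and Igha (ENSMUSG00000095079, 113254830 to 113260236) close the row, and Igha starts 162494 bases downstream of the first base of Ighm.

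The 4 Ighg genes are related in sequence, with Ighg2b and Ighg2c the closest pair, which matters for how sequencing reads can be divided among them. The first 60 bases of the exon for their first constant domain, read 5′ to 3′ on the minus strand from the GRCm38 genome, are shown in lower case, with capitals at the bases that differ from Ighg2c.
Ighg2c (chr12:113288873-113288932): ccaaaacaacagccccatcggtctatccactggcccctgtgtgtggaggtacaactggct
Ighg2b (chr12:113307874-113307933): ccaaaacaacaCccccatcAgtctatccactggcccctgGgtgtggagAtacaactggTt
Ighg1 (chr12:113330464-113330523): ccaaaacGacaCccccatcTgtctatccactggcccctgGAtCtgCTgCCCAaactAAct
Ighg3 (chr12:113361173-113361232): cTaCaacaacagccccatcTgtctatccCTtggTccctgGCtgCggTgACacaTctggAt
In this stretch Ighg2b differs from Ighg2c at 5 of 60 bases, whereas Ighg1 and Ighg3 each differ at 14. Over the shorter transcript, Ighg2b and Ighg2c were identical at 86.8% of aligned bases, and the other pairs of Ighg genes at 75.8% to 78.4%. Of all 50-base windows in its transcripts, Ighg2c shared 5.49% exactly with another gene, Ighg2b 4.15%, Ighg3 1.58% and Ighg1 0.393%. At 75 bases the highest share was 0.768%, and at 100 bases it was 0. Ighm, Ighd, Ighe and Igha shared no window of any of these lengths. The read length is not given in the sources used here, so the values of Ighg2b and Ighg2c carry some uncertainty as to which of both genes a read came from.

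The deposited values were read as FPKM (fragments relative to the length of the transcript and to all fragments of the library), a scale that corrects for transcript length and lets genes be compared with each other. A depth of 10900000 to 15300000 fragments could be read from the steps in the values of 6 libraries. No such step was found in Lf-/- pre-pro-B replicate 2, which also stood apart in having 12172 genes above 0, compared with 19477 to 20250 elsewhere. For some of the members and gene lists, but not all, differences are also given without it. Ltf, which encodes lactoferrin, was at 2143 to 2731 FPKM in the WT libraries compared with 88.2 to 168 FPKM in Lf-/- libraries. The gates were checked with marker genes. A list of 18 neutrophil granule genes took 27.7% to 55.7% of the summed FPKM of a library, the highest share in the WT pro-B library. The 16 early B lineage genes took 0.0243% to 0.0664% in the WT libraries and 0.197% to 0.345% in the Lf-/- libraries. In such mixed samples, fewer cells of a type and less RNA per cell cannot be told apart.

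Igha and Ighm were the most abundant members in every library, and Ighe was at or near 0. Igha ranked first in 5 of 7 libraries and Ighm in the other two. The median over the 7 libraries was 2977 FPKM for Igha, 960.5 FPKM for Ighm, 483 FPKM for Ighg2c, 208 FPKM for Ighg2b, 28.6 FPKM for Ighg1, 18.1 FPKM for Ighd, 11.6 FPKM for Ighg3 and 0 for Ighe. Summed over the 8 genes, the pre-pro-B replicates reached 8370 and 5804 FPKM (WT) and 8156 and 6842 FPKM (Lf-/-), and the pro-B libraries 1219 FPKM (WT) and 2083 and 2833 FPKM (Lf-/-). The pre-pro-B sums lay above the pro-B sums without overlap, at 0.749% to 1.05% of all FPKM in a library compared with 0.146% to 0.387%.

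**Figure D1:**
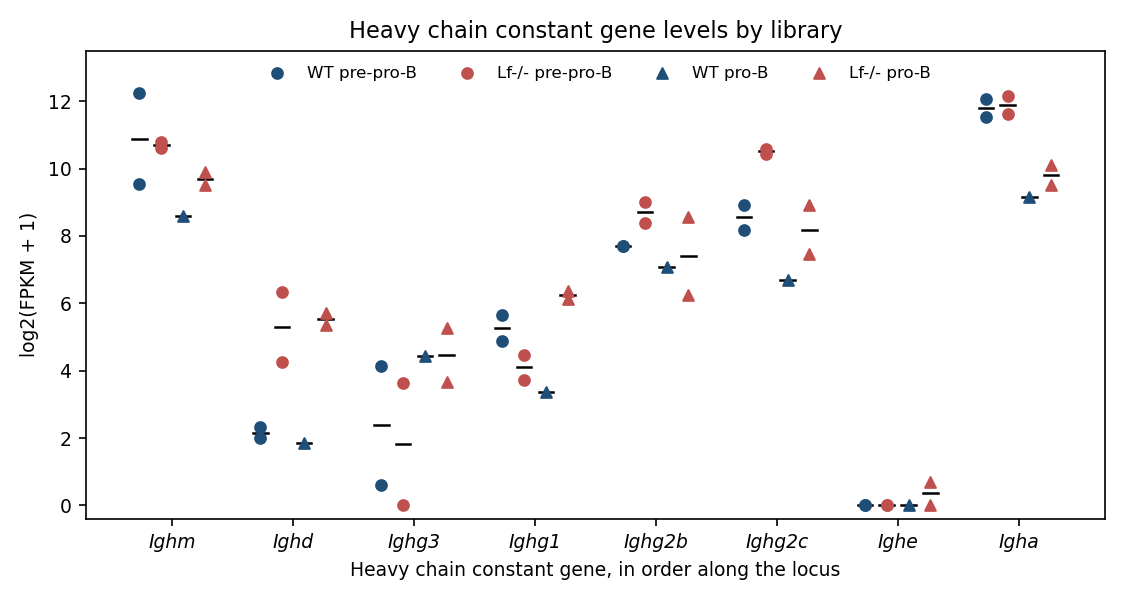
Level of each heavy chain constant gene, as log2(FPKM + 1), in the 7 libraries. Each point is 1 library, colour gives the genotype, shape the stage, and bars mark group means; Ighd is the gene with every Lf-/- library above every WT library, and Igha the gene with every pro-B library below every pre-pro-B library.

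The order of mean log2 levels was Igha, Ighm, Ighg2c, Ighg2b, Ighg1, Ighd, Ighg3 and Ighe. Igha lay 0.71 ± 1.09 above Ighm (log2 scale, SD, n = 7 libraries), so these neighbours did not differ beyond their spread. Ighm lay 1.43 ± 1.45 above Ighg2c, a difference within 1 SD although it had the same sign in 7 of 7 libraries. Ighg2c lay 0.93 ± 0.82 above Ighg2b and Ighg2b lay 2.88 ± 1.70 above Ighg1, each in 6 of 7 libraries and by more than 1 SD. Ighg1 lay 0.96 ± 1.98 above Ighd and Ighd 0.86 ± 2.99 above Ighg3, both within their spread. Ighg3 lay 3.01 ± 1.98 above Ighe. Levels did not follow the order of the genes along the locus, since the first and the last gene were the highest.

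**Figure D2:**
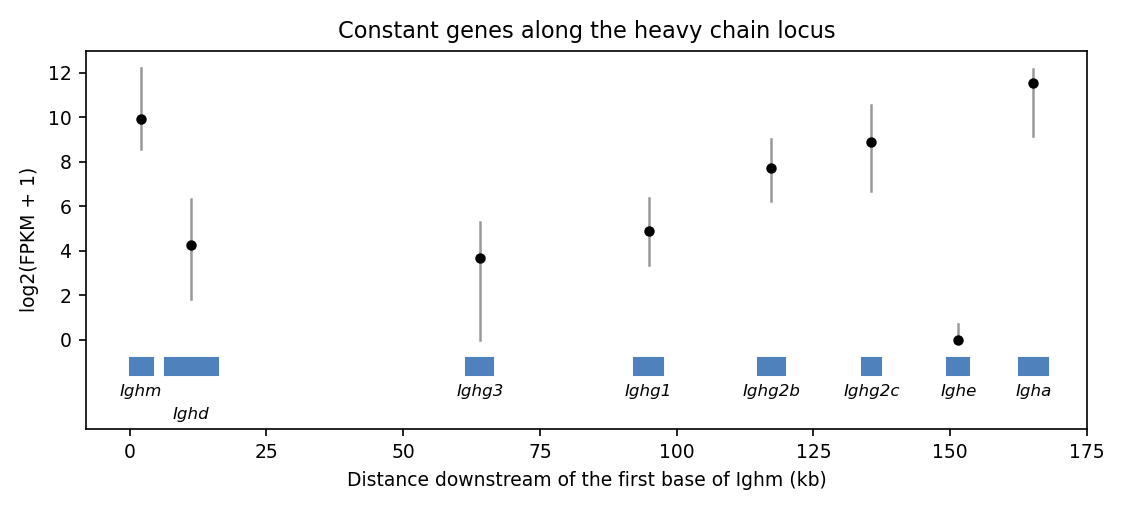
The 8 genes at scale along the locus, with the distance from the first base of Ighm in kb on the horizontal axis, and log2(FPKM + 1) on the vertical axis. Dots are medians and lines the range over 7 libraries; Ighm and Igha, at opposite ends, are highest, and Ighe, next to Igha, has a median of 0.

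At the pre-pro-B stage, Ighm reached 4830 and 746 FPKM (WT) and 1780 and 1574 FPKM (Lf-/-), and at the pro-B stage 385 FPKM (WT) and 960.5 and 724 FPKM (Lf-/-). The WT pre-pro-B pair spanned a 6.48-fold range and enclosed both Lf-/- pre-pro-B values, whereas the Lf-/- pair of each stage differed by at most 1.33-fold. In pro-B cells, where Ighm transcription accompanies the first heavy chain rearrangements, both Lf-/- values lay above the WT value, as for 75.3% of all genes. Igkv4-77 (a light chain variable gene), Mgat1 (a Golgi enzyme of glycan synthesis) and the mitochondrial tRNA genes mt-Tc, mt-Tn and mt-Ty had the profiles nearest to Ighm over the 7 libraries, among 4918 genes compared. Their root mean square distances were 0.62 to 0.70 on the log2 scale, where the profile of Ighm itself had an SD of 1.17.

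Ighd in WT mice reached 2.97 and 3.98 FPKM at the pre-pro-B stage and 2.59 FPKM at the pro-B stage. In Lf-/- mice it reached 18.1 and 79.8 FPKM at the first and 51.1 and 40.1 FPKM at the second stage. Every Lf-/- library lay above every WT library, with the highest WT value at 3.98 FPKM and the lowest Lf-/- value at 18.1 FPKM. Depending on which of its transcripts is counted, the WT values rest on 26 to 85 fragments a library. Relative to Ighm, Ighd was at 0.614, 5.34 and 6.74 per 1000 in the WT libraries, compared with 10.1, 50.7, 53.3 and 55.4 per 1000 in the Lf-/- libraries. That ratio is formed within a library and does not depend on how libraries are scaled, and its genotypes did not overlap either.

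Fcmr, which encodes the receptor for the IgM constant region, had the profile nearest to Ighd, at a root mean square distance of 0.42 on the log2 scale, where the profile of Ighd itself had an SD of 1.91. Fcmr was at 16.2, 8.30 and 9.73 FPKM in the WT libraries compared with 77.7, 190.1, 117 and 109 FPKM in Lf-/- libraries. The next were Gm13841, Gm14036, Gm8210 and Gimap6, at distances of 0.53 to 0.64. The likeness is a description over 7 libraries that share their sort and their total fragments. The 15 mature B markers, of which Fcmr is one, summed to 894 to 1323 FPKM in the WT libraries and 3262 to 4390 FPKM in the Lf-/- libraries. Most of each sum was Cd74 (chosen after its values were seen), at 820 to 1236 FPKM in WT and 2672 to 3989 FPKM in Lf-/- libraries. The sum separated the genotypes as Ighd did. Among the Lf-/- libraries the sum was highest in pre-pro-B replicate 1 (4390 FPKM, of which Cd74 was 3989 FPKM). Ighd was lowest in that library (18.1 FPKM). The part of these markers in the Ighd values was not tested.

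**Figure D3:**
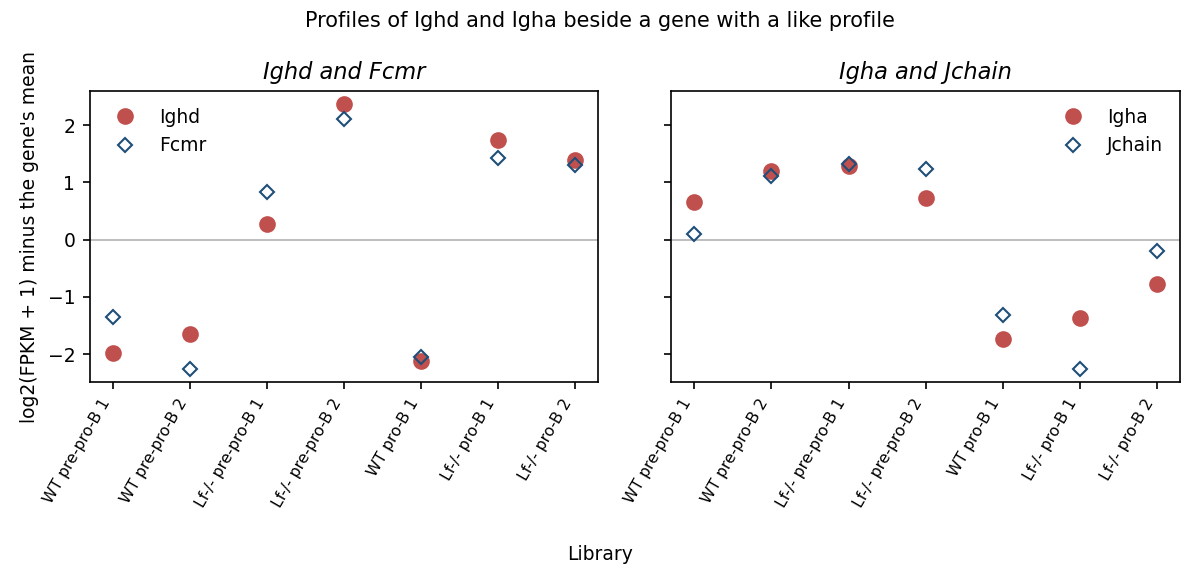
Level of Ighd with Fcmr (left) and of Igha with Jchain (right) in each library, as log2(FPKM + 1) minus the mean of the gene over the 7 libraries. Ighd and Fcmr lie below 0 in the 3 WT libraries and above it in the 4 Lf-/- libraries, and Igha and Jchain lie above 0 in the 4 pre-pro-B libraries and below it in the 3 pro-B libraries.

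At the pre-pro-B stage Igha reached 2977 and 4332 FPKM (WT) and 4608 and 3127 FPKM (Lf-/-). At the pro-B stage Igha reached 567 FPKM (WT) and 728 and 1100 FPKM (Lf-/-). Every pro-B library lay below every pre-pro-B library, and within a stage the genotypes overlapped only in pre-pro-B cells. The nearest profiles were those of Gm42667, the variable genes Ighv1-62-3, Igkv1-117 and Igkv3-3, and Jchain, which encodes the chain that joins IgA and IgM into polymers, at distances of 0.36 to 0.52 where Igha had an SD of 1.26. Jchain was at 643 to 1509 FPKM in the pre-pro-B libraries and 125 to 523 FPKM in the pro-B libraries. The 12 plasma cell markers, Jchain among them, summed to 930 to 1793 FPKM and 359 to 891 FPKM in the same libraries. Without Jchain the other 11 summed to 206 to 369 FPKM in the pre-pro-B and 118 to 369 FPKM in the pro-B libraries, so that the stages overlapped. The part of plasma cell transcripts in the Igha values was not tested. Of the genes used to define plasma cells, Prdm1 (a regulator of plasma cell identity) was at 0 to 0.649 FPKM and Sdc1 (the surface marker CD138) at 0.605 to 6.24 FPKM. Mzb1 (an endoplasmic reticulum protein that assists antibody assembly) was at 38.2 to 211 FPKM and Xbp1 (a transcription factor of the secretory pathway) at 26.1 to 98.4 FPKM, all 4 chosen after their values were seen.

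Among the IgG genes, Ighg2c was the most abundant in 6 of 7 libraries, with Ighg2b above it in WT pro-B cells. At the pre-pro-B stage it reached 288 and 486 FPKM (WT) and 1385 and 1533 FPKM (Lf-/-), and at the pro-B stage 102 FPKM (WT) and 174 and 483 FPKM (Lf-/-). Both Lf-/- values were above the WT values of the same stage. Ighg2b at the pre-pro-B stage reached 205 and 208 FPKM (WT) and 333 and 517 FPKM (Lf-/-), also without overlap. At the pro-B stage the Lf-/- values of Ighg2b, 75.7 and 380.4 FPKM, lay on both sides of the WT value of 133 FPKM. The ratio of Ighg2c to Ighg2b was 4.16 and 2.97 in Lf-/- pre-pro-B, 2.30 and 1.27 in Lf-/- pro-B and 0.767 to 2.33 in the WT libraries, so that the genotypes overlapped.

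Ighg1 at the pre-pro-B stage reached 48.8 and 28.6 FPKM (WT) and 21.1 and 12.2 FPKM (Lf-/-), lower in both Lf-/- libraries. At the pro-B stage it reached 9.21 FPKM (WT) and 81.1 and 68.5 FPKM (Lf-/-), higher in both Lf-/- libraries, as were 75.3% of all genes. Ighg3 reached 16.7 and 0.535 FPKM (WT) and 11.3 and 0 FPKM (Lf-/-) at the pre-pro-B stage, and 20.7 FPKM (WT) and 11.6 and 37.8 FPKM (Lf-/-) at the pro-B stage. Its replicates differed by more than its groups, and the value of 0.535 FPKM rests on 7 to 15 fragments. Ighe was listed at 0 in 6 libraries and at 0.634 FPKM in Lf-/- pro-B replicate 1, about 9 to 10 fragments. In the 5 libraries at 0 whose depth could be read, a count of 0 allows up to 3 fragments, or 0.134 to 0.202 FPKM, which covers counting error only.

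Between genotypes in pre-pro-B cells, Ighd and Ighg2c were higher in the Lf-/- libraries by the largest amounts and Ighg1 was lower. None of these differences passed the adjusted threshold. A difference is given as Lf-/- minus WT in log2(FPKM + 1), a scale that understates differences of genes with low values, with its standard error (SE) and the p of limma, adjusted by Benjamini-Hochberg over all genes tested. Ighd differed by 3.14 (SE 0.75, unadjusted p = 0.00633, adjusted p = 0.941 in limma). Ighg2c differed by 1.96 (SE 0.47, unadjusted p = 0.00643, adjusted p = 0.941 in limma). Ighg2b differed by 1.001 (SE 0.44), Ighg1 by -1.17 (SE 0.51), Ighg3 by -0.57 (SE 1.56), Ighm by -0.18 (SE 0.91) and Igha by 0.08 (SE 0.51). That of Ighm depended on the WT pair, at 1.17 without WT pre-pro-B replicate 1 and -1.53 without WT pre-pro-B replicate 2.

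Of the 8 members, 7 reached 1 FPKM in 2 or more libraries and were tested, and Ighe was not. In pre-pro-B cells 0 of 7 passed an adjusted p of 0.05, as did 0% of the 9720 genes tested, and 2 of 7 passed an unadjusted p of 0.05 in limma, compared with 2.92% of all genes. Both Lf-/- values lay above both WT values for 3 of 7 members (Ighd, Ighg2b and Ighg2c), compared with 15.5% of all genes, and below them for 1 (Ighg1), compared with 17.7%. The median difference of the 7 members was 0.08, beside 0.03 over all genes. Without Lf-/- pre-pro-B replicate 2, the difference of Ighd was 2.10 (adjusted p = 0.395 in limma), that of Ighg2c 1.88, that of Ighg2b 0.68 and that of Ighg1 -0.80, and that of Ighg3 turned to 1.24. Without Lf-/- pre-pro-B replicate 1, when 3338 genes passed, the adjusted p in limma was 0.0155 for Ighd, 0.0293 for Ighg2c, 0.0326 for Ighg2b and 0.0410 for Ighg1, whose Lf-/- value was then that of replicate 2 alone.

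In pro-B cells, Ighd and Ighg1 were higher in the Lf-/- libraries by the largest amounts. Ighd differed by 3.69 (SE 0.81, unadjusted p = 0.00266, adjusted p = 0.789 in limma). Ighg1, the constant gene of the IgG1 subclass, differed by 2.89 (SE 0.54, unadjusted p = 0.00105, adjusted p = 0.720 in limma). Ighg2c differed by 1.501 (SE 0.68), Ighm by 1.11 (SE 0.99), Igha by 0.66 (SE 0.55), Ighg2b by 0.35 (SE 0.88) and Ighg3 by 0.03 (SE 1.79). All 7 differences were positive in the values as deposited, and all 7 were lower after median-ratio scaling, which lowers the median of all genes. They were then 3.15 for Ighd, 2.28 for Ighg1, 0.86 for Ighg2c, 0.47 for Ighm and 0.011 for Igha, and those of Ighg2b and Ighg3 turned to -0.29 and -0.59.

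There was 1 WT pro-B library, and limma took its spread to be that of the other groups. In pro-B cells 0 of 7 members passed an adjusted p of 0.05, as did 0% of the 10793 genes tested, and 2 of 7 passed an unadjusted p of 0.05 in limma, compared with 4.33% of all genes. Both Lf-/- values lay above the WT value for 5 of 7 members, compared with 75.3% of all genes, and below it for 0, compared with 6.9%, so the members' count was near the background. The median difference of the members was 1.11, and that of all genes was 0.48. Median-ratio scaling brought the median of all genes to 0.014 in pro-B cells, -0.096 in pre-pro-B cells, -0.046 over both stages, 0.045 between stages and 0.070 for the interaction. The WT pro-B library was also the one with the highest neutrophil granule share, and the part of that share in these differences was not tested.

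**Figure D4:**
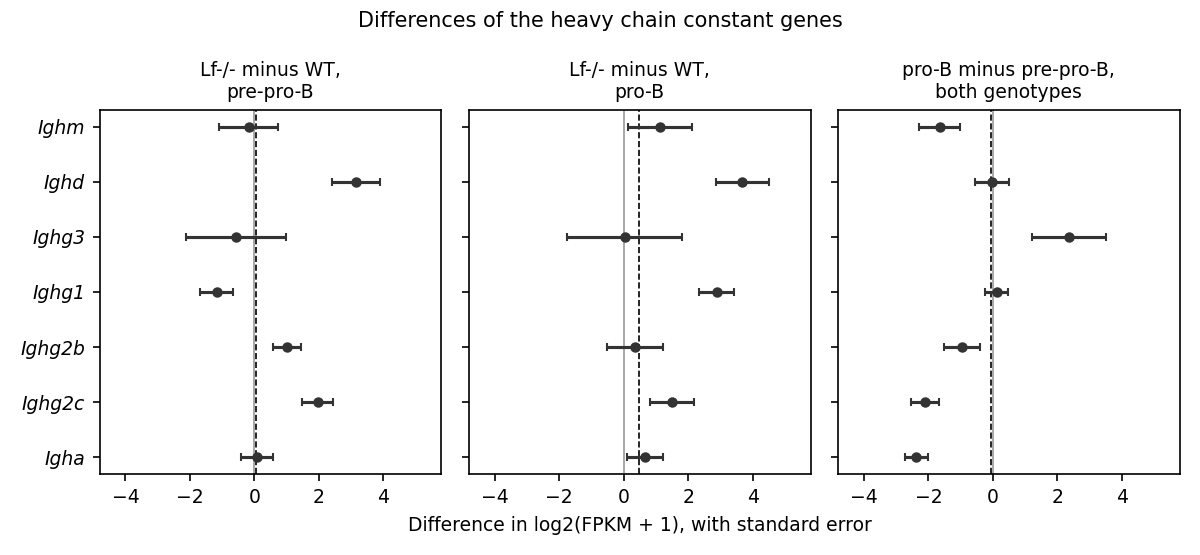
Differences of the 7 tested members in log2(FPKM + 1) between genotypes in pre-pro-B cells (left, 2 against 2 libraries), in pro-B cells (middle, 2 against 1) and between stages (right, 3 against 4). Dots are limma estimates, bars 1 standard error and the dashed line the median of all genes tested; Ighd lies at 3.14 and 3.69 in the genotype panels and at -0.03 in the stage panel, where Igha is lowest at -2.37.

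With both stages averaged in 1 fit, no member passed the adjusted threshold, and the largest difference was that of Ighd. Its difference was 3.42 (SE 0.53, unadjusted p = 0.000327, adjusted p = 0.149 in limma), rank 23 by p among 10793 genes, and it was higher in 4 of 4 Lf-/- libraries than in any WT library. That was 1 of 7 members, compared with 9.87% of all genes, and the reverse held for 0, compared with 1.13%, so the members' count was near the background. The difference was positive for 6 of 7 members, with a median of 0.68, beside 71.3% of all genes, with a median of 0.25. Ighg2c differed by 1.73 (SE 0.44, adjusted p = 0.459 in limma) and Ighg1 by 0.86 (SE 0.35, adjusted p = 0.729 in limma). An adjusted p of 0.05 was passed by 0 of 7 members and by 0.0278% of genes, and an unadjusted p of 0.05 by 3 of 7 members in limma and 6.18% of genes. The order of Ighd between genotypes was the same after median-ratio scaling (WT 2.94 to 4.26, Lf-/- 19.8 to 60.7) and when FPKM were set relative to the sum outside the neutrophil granule list (WT 2.86 to 4.003, Lf-/- 16.2 to 71.8). Without Lf-/- pre-pro-B replicate 2 the difference of Ighd was 2.89, and without replicate 1 it was 3.94, with 1 library left in that group each time.

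Between the stages, Igha was lower in every pro-B library than in any pre-pro-B library, while the stages overlapped for each of the other members tested, and no member passed the adjusted threshold. Igha differed by -2.37 (pro-B minus pre-pro-B, SE 0.36, unadjusted p = 0.000283, adjusted p = 0.540 in limma), rank 2 by p among 10793 genes. Ighg2c differed by -2.09 (SE 0.44, adjusted p = 0.912 in limma) and Ighm by -1.65 (SE 0.64, adjusted p = 0.978 in limma). Ighg2b differed by -0.96 (SE 0.57), Ighg3 by 2.36 (SE 1.15), Ighg1 by 0.12 (SE 0.35) and Ighd by -0.03 (SE 0.53). The median of the members was -0.96, beside -0.07 over all genes.

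An adjusted p of 0.05 was passed by 0 of 7 members and 0% of genes in the stage comparison, and an unadjusted p of 0.05 by 3 of 7 members in limma and 1.94% of genes. Every pro-B value lay below every pre-pro-B value for 1 of 7 members, Igha, compared with 0.945% of all genes, and above for 0, compared with 1.2%. That separation was also there after median-ratio scaling (617 to 973 in pro-B, 2378 to 5064 in pre-pro-B) and relative to the sum outside the neutrophil granule list (692 to 1174, and 2812 to 4356). Without Lf-/- pre-pro-B replicate 2 the difference of Igha was -2.51, and without replicate 1 it was -2.23, with 1 library left in that group each time. Ighg2c, without replicate 2, differed by -2.06 between stages and by 1.69 between genotypes over both stages. The genotype and stage comparisons of this fit share their libraries, so their values are given side by side and not related to each other.

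The difference between genotypes had opposite signs in the 2 stages for Ighg1, at -1.17 at the earlier and 2.89 at the later stage. The genotype by stage interaction of Ighg1 was 4.06 (SE 0.70, unadjusted p = 0.000640, adjusted p = 0.990 in limma), rank 2 by p among 10793 genes. Without Lf-/- pre-pro-B replicate 1 it was 4.43, and without replicate 2 it was 3.68, with 1 library left in that group each time. For the other 6 members the interaction lay between -0.65 and 1.30 with standard errors of 0.71 to 2.31. It was positive for 5 of 7 members, with a median of 0.58, beside 77.1% of all genes, with a median of 0.45. An adjusted p of 0.05 was passed by 0 of 7 members and 0% of genes, and an unadjusted p of 0.05 by 1 of 7 members in limma and 2.74% of genes.

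Isotype shares describe the mixture of constant regions within a library and do not depend on library scaling. At the pre-pro-B stage Ighm made up 57.7% and 12.8% (WT) and 21.8% and 23.0% (Lf-/-) of the summed FPKM of the 8 genes, and at the pro-B stage 31.6% (WT) and 46.1% and 25.5% (Lf-/-). Igha made up 35.6% and 74.6% (WT) and 56.5% and 45.7% (Lf-/-) at the first stage, and 46.5% (WT) and 34.96% and 38.8% (Lf-/-) at the second. The Ighm and Igha shares of the WT pre-pro-B pair lay farther apart than those of any other pair. Switched isotypes (Ighg, Ighe and Igha together) made up 42.3% to 87.1% of the sum, and on average 69.6% in the 4 Lf-/- and 65.9% in the 3 WT libraries (exact permutation test, two-sided, p = 0.8). That difference of 3.71 percentage points rested on the WT pre-pro-B pair, at -8.09 without replicate 1 and 14.3 without replicate 2.

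**Figure D5:**
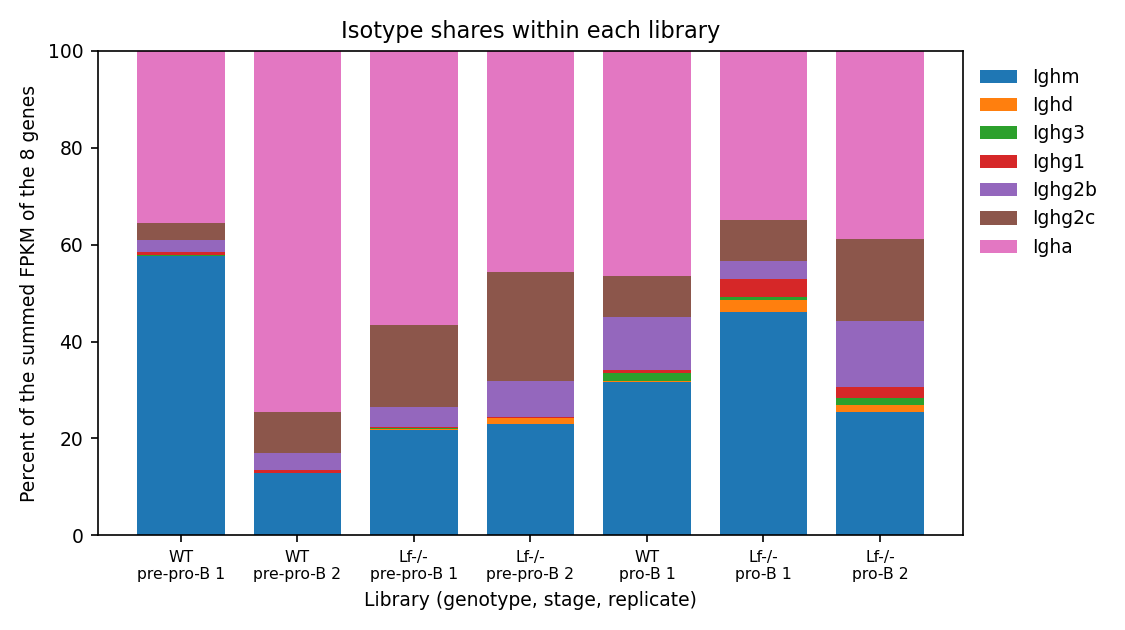
Share of each constant gene in the summed FPKM of the 8 genes, in percent, stacked for each of the 7 libraries (genotype, stage and replicate number). Ighm ranges from 12.8% to 57.7% and Igha from 34.96% to 74.6%, and Ighe, at 0.0304% in 1 library and 0 in the others, is not drawn.

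Ighg2c and Ighd took a higher share in every Lf-/- library than in any WT library. Ighd made up 0.0354%, 0.0686% and 0.213% in the WT libraries, compared with 0.221%, 1.17%, 2.46% and 1.41% in the Lf-/- libraries. The means differed by 1.21 percentage points (exact permutation test, two-sided, p = 0.0571, adjusted p = 0.257). Ighg2c made up 3.45% to 8.37% in the WT libraries and 8.37% to 22.4% in the Lf-/- libraries, so the highest WT and the lowest Lf-/- share were equal as rounded. The means differed by 9.47 percentage points (exact permutation test, two-sided, p = 0.0571, adjusted p = 0.257). When fragments were used in place of FPKM, the Ighg2c difference was 8.79 percentage points with an exact permutation p = 0.171. The differences without Lf-/- pre-pro-B replicate 2 were 1.26 for Ighd and 7.41 for Ighg2c (exact permutation p = 0.1 for each). With 3 against 4 libraries no p below 0.0571 can be reached, and adjusted values cover 18 tests.

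Between the stages, Ighg3 and Ighg1 took a higher share in every pro-B library than in any pre-pro-B library. Ighg3 made up 0.559% to 1.70% in pro-B and 0 to 0.199% in pre-pro-B cells, a difference of 1.11 percentage points (exact permutation test, two-sided, p = 0.0571, adjusted p = 0.257). Ighg1 made up 0.756% to 3.89% and 0.178% to 0.583%, a difference of 1.98 percentage points (exact permutation test, two-sided, p = 0.0571, adjusted p = 0.257). The other 14 tests gave p of 0.171 or more. Igha, whose level separated the stages, did not separate them as a share, at 34.96% to 46.5% in pro-B and 35.6% to 74.6% in pre-pro-B cells.

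The light chain constant genes had higher summed levels than the heavy chain constant genes in 7 of 7 libraries. FPKM of the light chain constant genes Igkc, Iglc1, Iglc2 and Iglc3, summed, were 3.59 to 12.3 times those of the 8 heavy chain constant genes, the highest in WT pro-B cells. Cd79a and Cd79b, the signalling chains of the B cell receptor, were at 86.1 to 261 and 68.3 to 197 FPKM in the WT libraries, compared with 731 to 1518 and 468 to 1087 FPKM in Lf-/- libraries, without overlap. Every Lf-/- value lay above every WT value for 9.87% of all genes. Of the 11 chains that pair with the heavy chain, all were tested, and 0 passed an adjusted p of 0.05 in limma in any comparison. Their difference between genotypes was positive for 9 of 11 in pre-pro-B cells, with a median of 1.09, and for 10 of 11 in pro-B cells, with a median of 2.95. Over all genes tested it was positive for 52.0% and 87.0%, so that the pro-B count was near the background, and the medians were 0.03 and 0.48. An unadjusted p of 0.05 was passed by 4 and by 7 of them in limma, beside 2.92% and 4.33% of all genes. The pre-pro-B difference without Lf-/- replicate 2 was positive for 11 of 11, beside 40.4% of all genes, and 4 passed an unadjusted p of 0.05 in limma, beside 8.07%. Averaged over the stages, Cd79a differed by 2.89 (adjusted p = 0.0838 in limma) and Cd79b by 2.84 (adjusted p = 0.0838 in limma). Between the stages the difference was positive for 3 of 11, beside 42.8% of all genes, and Jchain had the largest, at -2.22, followed by Igkc at -1.63 (adjusted p = 0.978 for both in limma).

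The surrogate light chain, which pairs with Ighm before a light chain gene is joined, is made from Vpreb1, Vpreb2 and Igll1. Vpreb1 reached 12.1 and 70.0 FPKM (WT) and 62.1 and 33.5 FPKM (Lf-/-) at the pre-pro-B stage, and 12.7 FPKM (WT) and 351 and 71.7 FPKM (Lf-/-) at the pro-B stage. The genotypes overlapped in pre-pro-B cells, and both Lf-/- values lay above the WT value in pro-B cells, as for 75.3% of all genes. The pro-B differences of Vpreb2, Vpreb1 and Igll1 were 3.60, 3.54 and 3.02 (adjusted p = 0.822 for each in limma).

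Of 15 genes of class switch recombination and somatic hypermutation, 9 were tested at the pre-pro-B and 10 at the pro-B stage, the difference between genotypes was positive for 4 and for 9, and 0 passed an adjusted p of 0.05 in limma, beside 1 that passed an unadjusted p of 0.05 in each stage, at the pro-B stage Xrcc6, which encodes a subunit of the Ku DNA end-binding complex, at 1.497. Their medians were -0.21 and 0.37, beside 0.03 and 0.48 over all genes, of which 52.0% and 87.0% had a positive difference. The share of all genes past an unadjusted p of 0.05 was 2.92% and 4.33%.

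Of the 13 receptors that bind heavy chain constant regions, Fcmr had the largest differences between genotypes, at 3.28 (SE 0.61) at the earlier and 3.41 (SE 0.65) at the later stage (adjusted p = 0.941 and 0.720 in limma). Fcer1a, the IgE-binding chain of the mast cell and basophil receptor, was at 10.6 to 22.2 FPKM in the pre-pro-B libraries, 14.6 FPKM in WT pro-B and 73.0 and 79.2 FPKM in Lf-/- pro-B cells, with an interaction of 2.79 (SE 0.62, adjusted p = 0.990 in limma). In this list 0 of 9 tested at the pre-pro-B and 0 of 10 at the pro-B stage passed an adjusted p of 0.05, and 1 and 2 passed an unadjusted p of 0.05 in limma, beside 2.92% and 4.33% of all genes. Fcmr without Lf-/- pre-pro-B replicate 2 had a pre-pro-B difference of 2.64 (adjusted p = 0.427 in limma), and the interaction of Fcer1a was 3.12 (adjusted p = 0.304 in limma).

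Of 12 genes of heavy chain transcription and RNA processing, 8 were tested, and 0 passed an adjusted p of 0.05 in limma. The difference between genotypes was positive for 6 of 8 at the pre-pro-B and 7 of 8 at the pro-B stage, beside 52.0% and 87.0% of all genes, and 1 and 2 passed an unadjusted p of 0.05 in limma, beside 2.92% and 4.33%. When Lf-/- pre-pro-B replicate 2 was left out, the pre-pro-B counts were 6 positive and 5 past an unadjusted p of 0.05 in limma, beside 40.4% and 8.07% of all genes. Irf4, a regulator of light chain joining and of plasma cells, had the largest pre-pro-B difference, at 2.14 (SE 0.53), and Pou2af1, a B cell coactivator of immunoglobulin promoters, the largest pro-B difference, at 2.28 (SE 0.84). Zfp318, which favours Ighd over Ighm in the processing of their shared transcript, was too low to be tested. It was at 0.128 to 0.159 FPKM in the WT libraries and 0.226 to 0.468 FPKM in the Lf-/- libraries (chosen after its values were seen). Of the genes that were tested, 9.87% had every Lf-/- value above every WT value. The part of Zfp318 in the Ighd values was not tested.

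Most genes of the B lineage marker lists had a difference between genotypes of the same sign as Ighd and Ighg2c, as did 52.0% of all genes in pre-pro-B cells and 87.0% in pro-B cells. The difference was positive for 15 of 15 early B lineage genes tested in both stages, for 13 of 13 and 14 of 14 mature B genes, and for 8 of 10 and 10 of 10 plasma cell genes, while 0 of 18 and 4 of 18 neutrophil granule genes, and 1 of 2 and 6 of 7 T and NK genes tested, had a positive difference. Set against 87.0%, the pro-B counts of positive differences in the B lineage, plasma cell and T and NK lists were near the background. The pro-B medians were 2.78 for early B, 2.17 for mature B, 1.03 for plasma cell, 1.27 for T and NK and -0.74 for neutrophil granule genes. That of all genes was 0.48. In pre-pro-B cells the medians were 1.22, 1.78, 0.46, -0.43 and -0.41 in the same order, beside 0.03 over all genes. None of these genes passed an adjusted p of 0.05 in limma within a stage.

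An unadjusted p of 0.05 in limma was passed, with a positive difference, by 7 and 11 early B, 10 and 11 mature B, 2 and 3 plasma cell, and 0 and 4 T and NK genes at the earlier and later stage. With a negative difference it was passed by 1 and 2 neutrophil granule genes, and by 1 T and NK gene at the earlier stage. The share of all genes past it was 2.92% and 4.33%. With Lf-/- pre-pro-B replicate 2 left out, the pre-pro-B difference was positive for 13 of 14 early B, 11 of 12 mature B, 5 of 10 plasma cell, 4 of 18 neutrophil granule and 0 of 2 T and NK genes, beside 40.4% of all genes. The part of these cell types in the differences of the constant genes was not tested.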

How the data were processed

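Values of 7 libraries were analysed, one deposited table each. Per the labels, total RNA was sequenced, and the submitters' processing notes name TopHat, Cufflinks, HTSeq, DESeq and GRCm38 without roles or versions. The deposited values are FPKM as inferred from the values: times transcript length, they fell within 0.02 of whole multiples of 1 step more often than by chance in 6 libraries. Groups came from the labels, and the members and gene lists were chosen with earlier results of these data known.

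Genes that reached 1 FPKM in 2 or more libraries were fitted on log2(FPKM + 1) with limma 3.58.1 (R 4.3.3, mean-variance trend): the 4 pre-pro-B libraries for that genotype difference, all 7 libraries in 4 groups for the rest, with Benjamini-Hochberg adjustment. Shares were compared with exact permutation tests (scipy 1.17.1). The fit was tested on simulated data. Of listed genes other than the members, at most the 4 with the largest difference in a comparison were named, and for Ighm, Ighd and Igha the 5 with the nearest profile. Of 52550 genes, 52403 matched GENCODE M21. Alternatives were a pseudocount of 0.1, other filters, median-ratio and quantile scaling, all 7 libraries in 1 fit for pre-pro-B cells, fragments in place of FPKM, the replicate number as a block, and each library left out. The plasma cell sum without Jchain and the list counts without 1 library were added after seeing the data. Some single genes are not reported here.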

Additional observations from a re-analysis of the deposited data

Results flagged for a closer look

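The genotype difference of Ighg1 differed between the stages. The interaction was 4.06 on the log2 scale (SE 0.70, unadjusted p = 0.000640 in limma), from a difference of -1.17 at the earlier and 2.89 at the later stage, and it did not pass adjustment over all genes (adjusted p = 0.990). The Lf-/- value was below the WT values in 2 of 2 pre-pro-B libraries and above the WT value in 2 of 2 pro-B libraries. Of all genes, 17.7% lay below in this way in pre-pro-B cells and 75.3% lay above in pro-B cells. The WT side of the pro-B contrast is 1 library, at 9.21 FPKM. With each of the other libraries left out in turn the interaction was 3.68 to 4.43. The median interaction over all genes, with no library left out, was 0.45.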

How the results depend on the processing

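The number of genes past an adjusted p of 0.05 depended on the setting. Without a filter it was 256 in pro-B cells, 150 over both stages, 124 between stages and 122 for the interaction. Over both stages it was 0 with a pseudocount of 0.1 and 12 with at least 1 FPKM in every library. Leaving out single libraries gave 0 to 3338 in pre-pro-B cells, 0 to 1 in pro-B cells, 0 to 2504 over both stages, 0 to 347 between stages and 0 to 561 for the interaction. The highest counts came without Lf-/- pre-pro-B replicate 1. Of the libraries left out, this was the only one without which Ighd (adjusted p = 0.0155), Ighg2c (0.0293), Ighg2b (0.0326) and Ighg1 (0.0410) passed in pre-pro-B cells, as did Ighd over both stages (0.0113), Igha between stages (0.0461) and Ighg1 in the interaction (0.0304), all by limma. In pre-pro-B cells a library left out leaves 1 sample in its group, which is assumed to vary like the other pair, here the WT pair. The fits with 4 groups could not be made without the single WT pro-B library.

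Counts at an unadjusted p of 0.05 without a filter were 649 in pre-pro-B cells (284 with it), 1979 in pro-B cells (467), 1929 over both stages (667), 1360 between stages (209) and 1608 for the interaction (296). They were 441 in pre-pro-B cells after quantile normalization and 528 with all 7 libraries in 1 fit. After median-ratio scaling they were 270 in pro-B cells and 139 for the interaction. With at least 1 FPKM in every library they were 112 between stages and 152 for the interaction, which was 195 with a pseudocount of 0.1.

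No pairing by replicate number was seen in the values: deviations from group means correlated at -0.013, 0.039 and 0.053 over 10793 genes between groups. Only the first value joins 2 stages of the same genotype (Lf-/-), and WT could not be checked with 1 pro-B library. Whether samples of both stages came from the same mice is therefore not known. With the replicate number as a block, 65 genes passed in pre-pro-B cells, Ighd among them (adjusted p = 0.00133 in limma), and 532 and 456 genes passed an unadjusted p of 0.05 in pre-pro-B cells and for the interaction. The block turned Ighg2b in pro-B cells to -0.14, Ighg3 over both stages to 0.19, and Ighd and Ighg1 between stages to 0.14 and -0.027.

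Directions of small differences turned. Median-ratio scaling gave -0.091 for Igha in pre-pro-B cells, -0.29 for Ighg2b and -0.59 for Ighg3 in pro-B cells, -0.041 for Igha over both stages and 0.076 for Ighd between stages, and quantile normalization -0.59 for Ighg3 in pro-B cells and 0.075 for Ighd between stages. The log2 difference between genotypes of the summed FPKM was 0.55, and 0.14 after median-ratio scaling.

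When single libraries were left out, the ranges that crossed 0 were -1.53 to 1.17 for Ighm, -0.20 to 0.36 for Igha and -2.33 to 1.24 for Ighg3 in pre-pro-B cells, -0.78 to 0.84 for Ighg3 and -0.80 to 1.51 for Ighg2b in pro-B cells, -0.21 to 1.14 for Ighm and -1.18 to 0.63 for Ighg3 over both stages, and -0.56 to 0.49 for Ighd and -0.071 to 0.31 for Ighg1 between stages. Among shares, Lf-/- minus WT in percentage points, they were -15.5 to 6.92 for Ighm, -16.6 to 2.95 for Igha, -0.56 to 4.16 for Ighg2b, -0.44 to 0.40 for Ighg3 and -8.09 to 14.3 for the switched isotypes together (3.71 with all libraries). Between stages they were -0.30 to 15.2 for Ighm and -4.66 to 1.66 for Ighg2c. The cause of these changes was not tested.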
